A study of Mus musculus with 6 samples.

Results

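The genes described here make, conjugate, move and sense bile acids in the hepatocyte. They were taken by symbol from the deposited table of reads per gene, and all 10 of the 10 symbols were found among its 17275 genes: Cyp7a1, Cyp8b1, Cyp27a1, Cyp7b1, Baat, Slc27a5, Slc10a1, Abcb11, Nr1h4 and Nr0b2. All 10 passed the filter on low counts. The libraries came from C57BL/6 mice of genotype Axin2rtTA;TetO-H2B-GFP, given as 8 weeks of age in the protocol and as postnatal day 63 in the sample labels. In these mice the Axin2 locus drives a doxycycline-dependent activator, which switches on a histone-bound green fluorescent protein. All mice drank doxycycline for 7 days, non-parenchymal cells were removed, and the remaining hepatocytes were separated by sorting into GFP+ cells, called Axin2-positive, and GFP- cells, called Axin2-negative, so both groups carry the same alleles and the same treatment. Each group has 3 libraries, numbered 1, 2 and 3 here by the sequencing index that 1 library of each group shares. The fluorescence reports activity of the Axin2 promoter, a target of Wnt/β-catenin signalling, and the stable label can outlast that activity.

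Bile acids are made from cholesterol in hepatocytes. Cyp7a1 opens the classical pathway and sets its rate, Cyp8b1 directs its intermediates to cholic acid, and Cyp27a1 and Cyp7b1 act in the alternative pathway, where oxidation of the side chain comes before the ring is hydroxylated. Slc27a5 couples bile acids to coenzyme A and Baat then joins them to taurine or glycine. Abcb11 pumps the conjugates into the canaliculus, Slc10a1 takes them back up from blood, and the nuclear receptor Nr1h4 (FXR) senses them and induces the corepressor Nr0b2 (SHP), which represses Cyp7a1 and Cyp8b1. In the liver lobule, the classical pathway is known to be more active around the central vein.

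The promoters of 3 members are shown because they hold matches to motifs of regulators of this circuit, and because Cyp8b1 differed between partner libraries of replicates 2 and 3 while Abcb11 hardly did. Each stretch is the 250 bases before the start of the gene, 5′ to 3′ on the strand of the gene, from RefSeq on GRCm38.p6, with motif matches in capitals. Cyp8b1 lies at chr9:121916306-121916555 (minus strand), Abcb11 at chr2:69342617-69342866 (minus strand) and Nr0b2 at chr4:133553126-133553375 (plus strand).
Cyp8b1: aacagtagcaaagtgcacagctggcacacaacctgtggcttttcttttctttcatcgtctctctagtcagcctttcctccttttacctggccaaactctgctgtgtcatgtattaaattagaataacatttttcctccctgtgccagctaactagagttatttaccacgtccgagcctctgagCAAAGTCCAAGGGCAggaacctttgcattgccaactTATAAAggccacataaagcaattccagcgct
Abcb11: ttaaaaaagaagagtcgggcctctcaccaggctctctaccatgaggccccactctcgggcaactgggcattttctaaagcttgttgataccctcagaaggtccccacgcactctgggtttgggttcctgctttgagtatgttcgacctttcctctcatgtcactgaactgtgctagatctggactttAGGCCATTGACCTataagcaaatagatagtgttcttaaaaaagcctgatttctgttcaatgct
Nr0b2: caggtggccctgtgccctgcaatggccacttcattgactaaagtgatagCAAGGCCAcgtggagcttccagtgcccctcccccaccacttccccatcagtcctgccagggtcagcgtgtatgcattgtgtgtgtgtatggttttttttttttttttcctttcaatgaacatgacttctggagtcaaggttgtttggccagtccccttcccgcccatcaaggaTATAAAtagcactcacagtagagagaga
Both strands were searched for the FXR inverted repeat (AGGNCA, then 1 base, then TGNCCT), the HNF4A word CAAAGTCCA, the LRH-1 (Nr5a2) core CAAGGNCA, the TCF/LEF words CTTTGAA and CTTTGAT, and TATAAA. In the Cyp8b1 promoter the HNF4A word, 67 to 59 bases before the start, overlaps the LRH-1 word at 60 to 53. The same stretches of all 32851 promoters in the table hold the HNF4A word in 0.384%, the LRH-1 word in 5.53%, CTTTGAA in 4.46%, CTTTGAT in 3.21% and TATAAA in 12.4%. The inverted repeat stands 63 to 51 bases before the Abcb11 start and occurs in 0.0852% of all promoters. In Nr0b2 the LRH-1 word stands 201 to 194 bases before the start. Of the 10 members 6 had an entry in the table (Cyp7a1, Cyp7b1, Baat and Slc27a5 had none), and no TCF/LEF word was found in the 7 entries of those 6, Slc10a1 having 2. A match is a description of letters and not a measured site.

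The libraries held 75882611 to 103386648 reads assigned to genes. Axin2, whose promoter drove the sort, was at 22.6 and 24.2 CPM (the read count scaled to the TMM-adjusted size of its library) in libraries labelled Axin2-positive (replicates 2 and 3), against 3.75 and 5.75 CPM in libraries labelled Axin2-negative (replicates 2 and 3). In replicate 1 it was at 2.40 CPM in the one labelled Axin2-positive and 3.04 CPM in its partner, so the sorted gene goes against that label. The libraries of replicate 1 were also more alike than any others, with a chi-square per degree of freedom of 4.74 over 12481 genes, against 331 to 1313 for the other 14 comparisons of 2 libraries. The central vein genes Glul (339 and 1050 CPM against 46.9 and 119 CPM) and Cyp2e1 (11162 and 11166 CPM against 2923 and 4033 CPM) were high in libraries labelled Axin2-positive (replicates 2 and 3). The portal vein genes Cyp2f2 (6.17 and 18.8 CPM against 2159 and 1233 CPM) and Cdh1 (0.177 and 0.744 CPM against 52.4 and 62.9 CPM) were low there. In replicate 1 Glul was at 88.0 and 87.9 CPM, Cyp2e1 at 1697 and 1692, Cyp2f2 at 1624 and 1653, and Cdh1 at 75.6 and 73.5. For this reason, fold changes of the members and of the called pathway genes are given both over 6 libraries and for replicates 2 and 3 alone. Ddx3y, a Y-linked gene, was at 90.8 and 84.1 CPM in replicate 2 and at most 0.0309 CPM in the other 4 libraries, while Xist was at 0.0507 and 0.0622 CPM in replicate 2 and 368 to 606 CPM elsewhere. Replicate 2 was therefore male and the others female by these genes.

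The hepatocyte gene Alb (albumin) stood at 60076 to 156336 CPM. The bile duct markers Krt7, Krt19, Epcam, Cftr and Sctr held 0 to 11 reads in every library. The 8 Kupffer markers summed to 0.329 to 3.41 CPM for the label Axin2-positive against 2.65 to 24.2 CPM for Axin2-negative, the 7 endothelial markers to 1.23 to 40.4 CPM against 3.89 to 54.9 CPM, and the 7 stellate markers to 0.203 to 5.46 CPM against 0.933 to 5.59 CPM. The endothelial and stellate sums were lowest in the libraries of replicate 2, where 3 and 0 endothelial and 5 and 4 stellate markers had no read. In the fit of replicates 2 and 3 described below, 5 of 5 tested Kupffer markers, 0 of 7 endothelial and 0 of 4 stellate markers were called lower, and 0 of any of these lists higher. The part of these markers in the results below was not tested. In sorted bulk samples, fewer cells of a type and less RNA per cell cannot be told apart.

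Per length of exon, the uptake and activation genes were the most abundant members and Cyp7b1 the least. The median over 6 libraries, in RPKM (CPM divided by kilobases of exon), ran from 436 for Slc27a5 through 336 for Slc10a1, 272 for Cyp27a1, 196 for Abcb11, 136 for Baat, 132 for Cyp8b1, 54.9 for Nr1h4, 46.3 for Cyp7a1 and 38.4 for Nr0b2 to 14.3 for Cyp7b1. In this order of levels, 8 of the 9 neighbouring pairs of genes had overlapping ranges over the libraries, and the exception was Abcb11 over Baat. The medians of Cyp7a1, Cyp8b1 and Cyp7b1 hide wide spreads: Cyp7a1 spanned 23.9 to 109 RPKM, Cyp8b1 52.8 to 288 RPKM and Cyp7b1 9.01 to 160 RPKM.

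**Figure D1:**
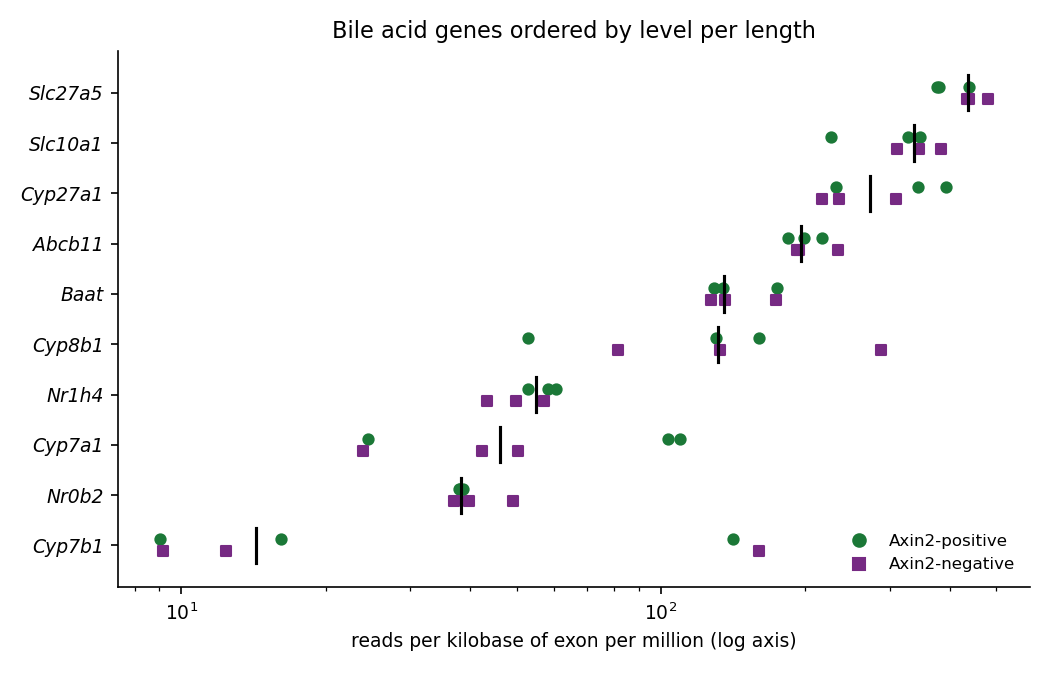
Level of each member in RPKM (log axis), 1 point per library (green circles Axin2-positive, purple squares Axin2-negative), with a black bar at the median of 6 libraries. Slc27a5 is at the top with a median of 436 and Cyp7b1 at the bottom with 14.3, and Cyp7b1 has the widest spread, from 9.01 to 160.

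The comparison asks which genes differ between hepatocytes with and without Axin2 promoter activity. In replicates 2 and 3 the libraries labelled Axin2-positive held more Cyp7a1 and less Cyp8b1 than their partners, the conjugation enzyme Baat and the export pump Abcb11 were nearly equal, and in replicate 1 no member differed by more than 0.07 on the log2 scale (largest 0.066). With all 6 libraries, the quasi-likelihood test of edgeR gave calls for 0 of the 10 members at an adjusted p under 0.05, and 0% of 12343 tested genes in either direction. At an unadjusted p under 0.05 it listed 0 members, as did DESeq2 (9 members with a result) and limma-voom, while it listed 279 of all genes. With the replicate number as a block it again called 0 members and 0% of genes, and listed 2 members at an unadjusted p under 0.05, Cyp7a1 and Cyp8b1, among 1132 of all 12343 genes. A fit of replicates 2 and 3 alone, with the block, called Cyp7a1 higher and Cyp8b1 lower, 1 of 10 members each way, where it called 3.43% of 12385 genes higher and 4.01% lower. Replicate 1 was left out with its small differences already known, and 1 residual degree of freedom remained, so these calls are not independent evidence. The median log2 fold change of the members in that fit was -0.04, beside -0.00 for all tested genes. Tested against a fold of 1.5, the same fit called Cyp7a1 alone among the members, where it called 0.791% of genes higher and 0.888% lower. Without the single library labelled Axin2-positive 1, 0 members were called, beside 0.00796% of 12559 genes higher and 0.0398% lower.

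**Figure D2:**
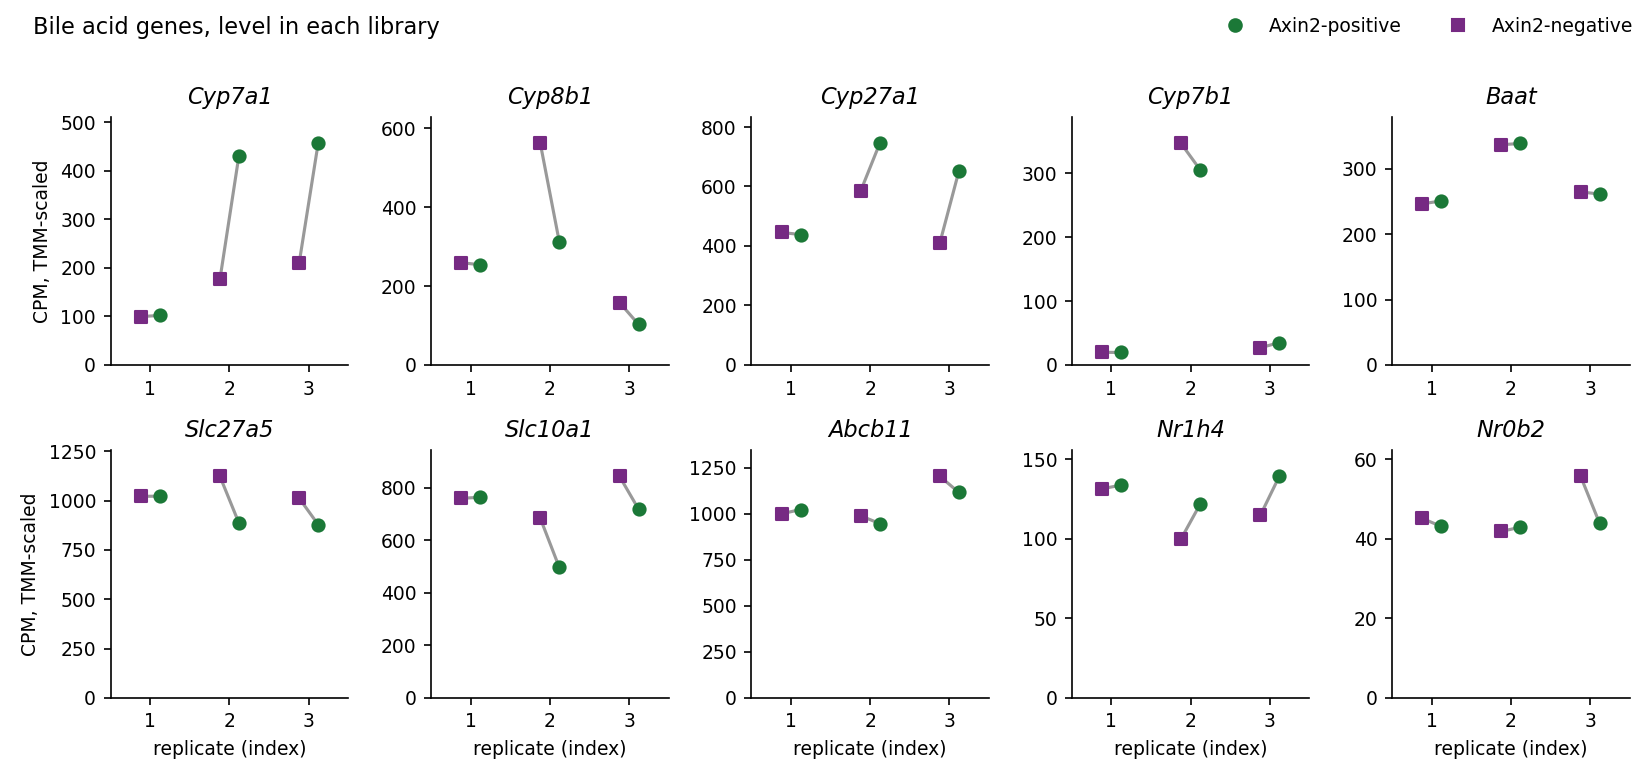
Level of each member in CPM (TMM-scaled totals) by replicate, with purple squares for the library labelled Axin2-negative and green circles for its Axin2-positive partner. Lines join the partners: Cyp7a1 goes up and Cyp8b1 down in replicates 2 and 3, and the partners of replicate 1 nearly coincide in every panel.

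Cyp7a1 (chromosome 4, 6265612 to 6275633, minus strand, GRCm38), the rate-limiting enzyme, was at 102, 432 and 457 CPM in libraries labelled Axin2-positive (replicates 1, 2 and 3), and at 99.6, 177 and 210 CPM in libraries labelled Axin2-negative (replicates 1, 2 and 3). The libraries labelled Axin2-positive 2 and 3 stood above all others, and the 2 libraries of replicate 1 stood lowest, so the groups overlapped over 6 libraries. The level was 2.44 times that of the partner in replicate 2, 2.18 times in replicate 3 and 1.03 times in replicate 1. Group means were 330.2 ± 198 CPM and 162 ± 56.4 CPM (SD, n = 3 each). Over 6 libraries its log2 fold change was 1.03 (SE 0.59, edgeR adjusted p = 0.999), and with the block 0.82 (SE 0.27, edgeR adjusted p = 0.450). In replicates 2 and 3 it was 1.21 (SE 0.11, edgeR adjusted p = 0.00850, and 0.0332 against a fold of 1.5). Glul, Cyp2e1, Cyp2f2 and Cdh1 differed in the same libraries, with the values given above.

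Cyp8b1 (chromosome 9, 121914356 to 121916305, minus strand) had the opposite sign. It was at 254, 312 and 103 CPM in libraries labelled Axin2-positive (replicates 1, 2 and 3), against 260 (259.5), 562 and 158 CPM. Both libraries of replicate 2 were high and both of replicate 3 low, so the groups overlapped even without replicate 1, and the difference shows only between partners. The partner labelled Axin2-negative held 1.80 times as much in replicate 2, 1.54 times in replicate 3 and 1.02 times in replicate 1. Over the 6 libraries it had a log2 fold change of -0.55 (SE 0.59, edgeR adjusted p = 0.999) and -0.50 with the block (SE 0.18, edgeR adjusted p = 0.450). In replicates 2 and 3 it was -0.73 (SE 0.12, edgeR adjusted p = 0.0314), and it did not pass against a fold of 1.5 (edgeR adjusted p = 0.605).

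Because these genes had opposite signs, their ratio within a library was also taken, after their values had been seen. It needs no scaling between libraries. Reads per kilobase of Cyp8b1 over those of Cyp7a1 were 1.55 and 0.482 in libraries labelled Axin2-positive (replicates 2 and 3), and 6.81 and 1.62 in their partners. The ratio was thus 4.403 times higher in the partner labelled Axin2-negative in replicate 2 and 3.35 times higher in replicate 3. In replicate 1 it was 5.32 in the library labelled Axin2-positive and 5.57 in the other, a difference of 1.05 times. The ratio also differed between the libraries labelled Axin2-negative, with 1.62 in replicate 3 below 5.57 and 6.81, so libraries of 1 group also differed widely.

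**Figure D3:**
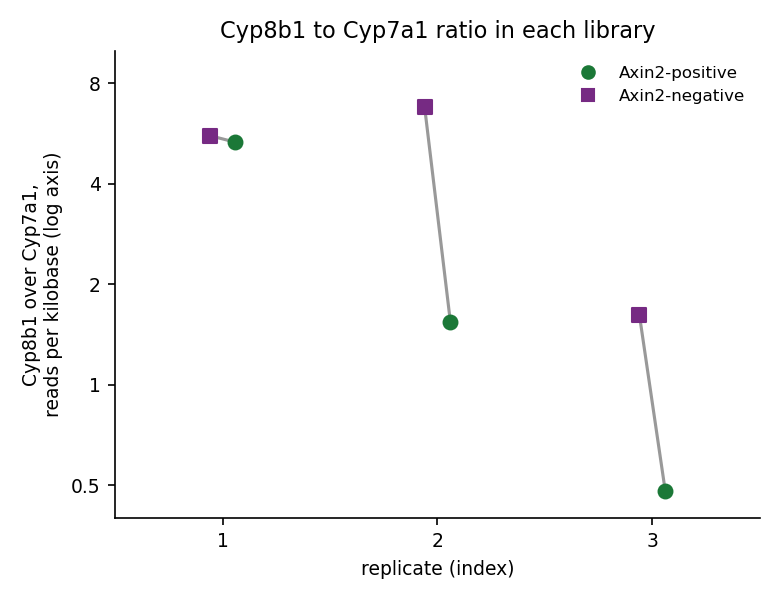
Ratio of Cyp8b1 to Cyp7a1 in reads per kilobase of exon (log axis) by replicate, with green circles for libraries labelled Axin2-positive and purple squares for Axin2-negative. The partners are at 5.57 and 5.32 in replicate 1, 6.81 and 1.55 in replicate 2, and 1.62 and 0.482 in replicate 3.

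Cyp27a1 (chromosome 1, 74713574 to 74737892, plus strand), the mitochondrial sterol hydroxylase of the alternative pathway, was at 438, 745 and 652 CPM in libraries labelled Axin2-positive (replicates 1, 2 and 3), against 446, 585 and 411 CPM. Both libraries labelled Axin2-positive 2 and 3 stood above all 3 labelled Axin2-negative. The level was 1.27 times that of the partner in replicate 2 and 1.59 times in replicate 3. Its log2 fold change was 0.35 (SE 0.25) over 6 libraries and 0.51 (SE 0.13) in replicates 2 and 3, with edgeR adjusted p-values of 0.999 and 0.0759.

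Cyp7b1 (chromosome 3, 18071950 to 18243338, minus strand), the oxysterol hydroxylase that follows Cyp27a1, is known to be higher in livers of male mice. It was at 306 and 347 CPM in the libraries of replicate 2 labelled Axin2-positive and Axin2-negative, 35.03 and 26.9 CPM in replicate 3 and 19.5 and 19.8 CPM in replicate 1. The male replicate stood far above the others in both groups, with a fold of 17.4 between the highest and the lowest library labelled Axin2-negative, and the largest fold within a replicate was 1.30. Only 1 replicate was male, so sex and replicate cannot be told apart. The log2 fold change was -0.13 (SE 1.46, edgeR adjusted p = 0.999) over 6 libraries and 0.06 (SE 0.13, edgeR adjusted p = 0.839) with the block. Partners differed by -0.02, -0.18 and 0.38 on the log2 scale in replicates 1, 2 and 3, with no common direction.

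Conjugation genes differed little. Slc27a5 (chromosome 7, 12988346 to 12998192, minus strand), the bile acid coenzyme A ligase, was at 1022, 886 and 879 CPM in libraries labelled Axin2-positive (replicates 1, 2 and 3), against 1022, 1123 and 1012 CPM. The libraries labelled Axin2-positive 2 and 3 were the lowest of the 6. In replicates 2 and 3 its log2 fold change was -0.27 (SE 0.10, edgeR adjusted p = 0.176), and over 6 libraries -0.18 (SE 0.13). Baat (chromosome 4, 49489422 to 49506557, minus strand), the amino acid transferase, was at 251, 339 and 261 CPM against 247, 337 and 265 CPM. Its log2 fold change was 0.01 (SE 0.19) over 6 libraries and -0.00 (SE 0.10) in replicates 2 and 3. Its partners differed by 0.03, 0.01 and -0.02 on the log2 scale in replicates 1, 2 and 3, while libraries of 1 group differed by up to 1.37 times, with replicate 2 the highest in both groups.

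Of the transporters, the uptake carrier Slc10a1 (chromosome 12, 80953183 to 80968705, minus strand) was at 764, 497 and 719 CPM in libraries labelled Axin2-positive (replicates 1, 2 and 3), against 760.3, 684 and 844 CPM. The library labelled Axin2-positive was the lower partner in replicates 2 and 3, by 1.38 and 1.17 times, and the groups overlapped. The log2 fold change was -0.34 (SE 0.11, edgeR adjusted p = 0.134) in replicates 2 and 3 and -0.21 (SE 0.20) over 6 libraries. The canalicular pump Abcb11 (chromosome 2, 69238282 to 69342616, minus strand) was at 1022, 947 and 1115 CPM against 999, 988 and 1203 CPM. Partners differed by at most 1.08 times, and the log2 fold change in replicates 2 and 3 was -0.08 (SE 0.10, edgeR adjusted p = 0.638), and over 6 libraries -0.05 (SE 0.15). Exons of the annotated genes Gm13613 and Gm13614 overlap those of Abcb11 on the opposite strand, and the use of strand in counting is not given in the sources used here. The other 9 members overlap no annotated exon of another gene.

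The receptor Nr1h4 (chromosome 10, 89454234 to 89533585, minus strand) was at 134, 122 and 139 CPM in libraries labelled Axin2-positive (replicates 1, 2 and 3), against 131, 99.9 and 115 CPM. In replicates 2 and 3 the library labelled Axin2-positive held 1.22 and 1.21 times as much as its partner. The log2 fold change there was 0.28 (SE 0.10, edgeR adjusted p = 0.139), and over 6 libraries it was 0.19 (SE 0.14, edgeR adjusted p = 0.999). The corepressor Nr0b2 (chromosome 4, 133553376 to 133556536, plus strand), a textbook FXR target, was at 43.1, 42.9 and 43.8 CPM against 45.1, 41.8 and 55.7 CPM. Group means were 43.3 ± 0.495 CPM and 47.5 ± 7.23 CPM (SD, n = 3 each), and the library labelled Axin2-negative 3 stood highest. Its log2 fold change was -0.15 (SE 0.11, edgeR adjusted p = 0.448) in replicates 2 and 3 and -0.14 (SE 0.12) over 6 libraries.

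**Figure D4:**
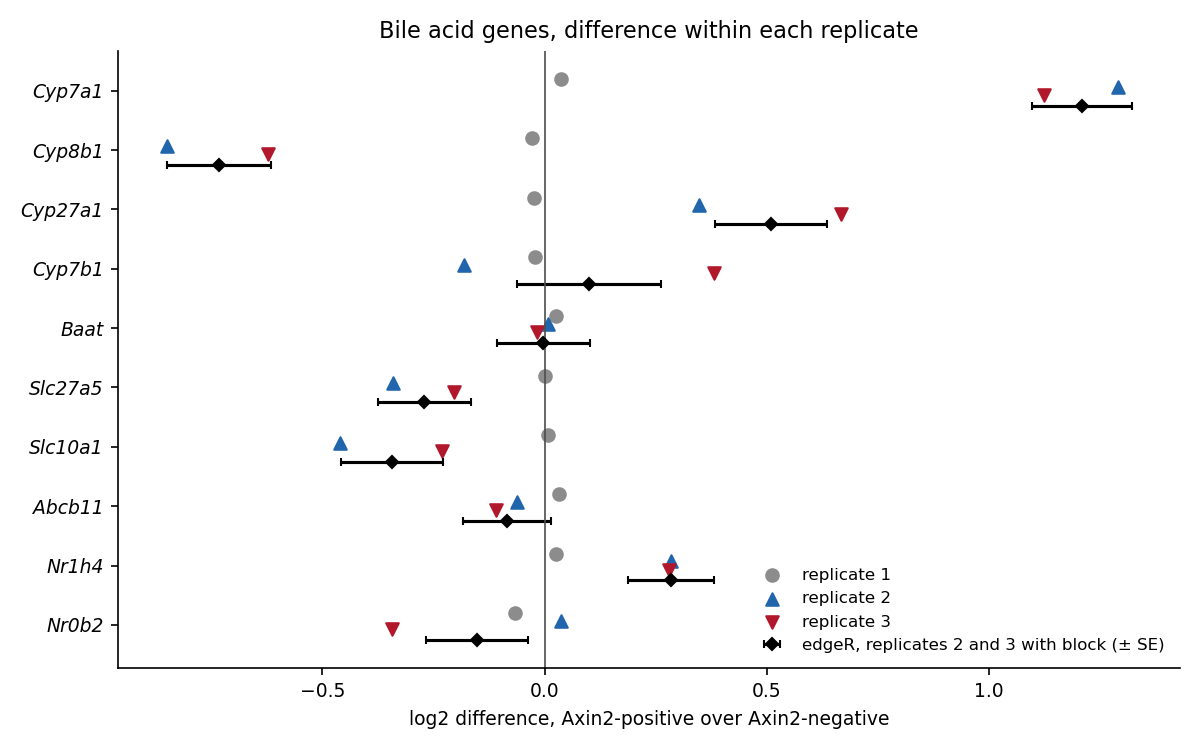
Log2 difference of the library labelled Axin2-positive over its Axin2-negative partner for each member (grey circles replicate 1, blue triangles replicate 2, red triangles replicate 3), and the edgeR estimate from replicates 2 and 3 with its SE (black). Replicate 1 stays within 0.066 of 0 for all 10 members, and Cyp7a1 (1.21) and Cyp8b1 (-0.73) have the estimates farthest from 0.

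Over the members, 7 of 10 had the same direction in replicates 2 and 3, beside 71.7% of all tested genes. Without replicate 1 the groups did not overlap for 3 members that were higher (Cyp7a1, Cyp27a1 and Nr1h4) and 1 that was lower (Slc27a5), in a comparison where 19.9% of all tested genes were higher without overlap and 21.0% lower. Over 6 libraries the groups overlapped for all 10, where 3.44% of genes were higher and 3.77% lower without overlap. Within replicate 1, 0 members passed a fold of 1.5, as 1.68% of tested genes did upward and 1.64% downward. Within replicate 2, 1 member passed it upward (7.67% of genes) and 1 downward (12.5%). Within replicate 3, 2 passed it upward, Cyp7a1 and Cyp27a1 (5.95% of genes), and 1 downward (10.5%). In both replicates 2 and 3, a fold of 1.5 was passed by Cyp7a1 upward and Cyp8b1 downward, as by 3.22% and 6.64% of all tested genes.

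Further genes of the pathway came from lists of 41 genes, of which 38 were in the table and 36 were tested. Of these 36, edgeR called 0 over 6 libraries and 0 with the block. At an unadjusted p under 0.05 it listed 0 and 7 of them, among 279 and 1132 of all 12343 genes. DESeq2 listed 2, among 432 of all genes, and limma-voom 1, among 238. The fit of replicates 2 and 3 called 4 higher and 5 lower, which is 11.1% and 13.9% of the 36, beside 3.43% and 4.01% of all genes. The limits given above for this fit hold here. Over 6 libraries, log2 fold changes of these 9 were 0.81 for Akr1c6, 0.98 for Slco1b2, 2.44 for Abcc4 and 0.46 for Nr1i3. They were -0.60 for Cyp39a1, -0.41 for Slc10a2, -0.27 for Atp8b1, -1.60 for Ostb and -0.87 for Ppargc1a, each with an edgeR adjusted p of 0.999.

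Among 13 tested synthesis genes, replicates 2 and 3 had 1 higher and 1 lower call. Akr1c6, an aldo-keto reductase, was at 2340 and 2015 CPM in libraries labelled Axin2-positive (replicates 2 and 3) against 1261 and 812 CPM (log2 fold change 1.10, SE 0.13, edgeR adjusted p = 0.0165). Whether it shares reads with related genes was not checked. Cyp39a1, which hydroxylates an oxysterol on the way to bile acids, was at 3.66 and 21.8 CPM against 15.02 and 44.8 CPM (-1.50, SE 0.24, edgeR adjusted p = 0.0315). Replicate 1 held 1036 and 1012 CPM of Akr1c6 and 39.9 and 39.4 CPM of Cyp39a1. The other abundant synthesis genes did not pass: log2 fold changes in replicates 2 and 3 were 0.05 for Scp2 (a sterol carrier with thiolase activity), -0.32 for Slc27a2 (a very long chain acyl-CoA synthetase) and 0.06 for Cyp2c70 (which makes muricholic acids).

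Among 12 tested transport genes there were 2 higher and 3 lower calls. Slco1b2, a sinusoidal uptake carrier for organic anions including bile acids, was at 3175 and 2841 CPM in libraries labelled Axin2-positive (replicates 2 and 3) against 1255 and 1342 CPM, and at 959 and 937 CPM in replicate 1. Its log2 fold change in replicates 2 and 3 was 1.21 (SE 0.11, edgeR adjusted p = 0.00793, and 0.0294 against a fold of 1.5), close in size to that of Cyp7a1. In the same fit Slc10a1, the other main uptake carrier, had the opposite sign and did not pass. Abcc4, a basolateral export pump, was called higher on few reads, 25 and 308 against 4 and 45 (2.76, SE 0.34, edgeR adjusted p = 0.0167, and 0.0345 against a fold of 1.5). Slc10a2, the sodium-dependent carrier best known from ileum and bile duct, was at 4.85 and 5.44 CPM against 9.62 and 10.2 CPM (-0.94, SE 0.13, edgeR adjusted p = 0.0237). The bile duct markers Krt7, Krt19 and Cftr had no read in libraries labelled Axin2-positive (replicates 2 and 3). Atp8b1, a canalicular phospholipid flippase, was called lower (-0.45, SE 0.09, edgeR adjusted p = 0.0492). So was Ostb, a basolateral bile acid export subunit, on 0 and 2 reads against 18 and 45 (-4.83, SE 0.88, edgeR adjusted p = 0.0401). Replicate 1 held 19 and 18 reads of Abcc4 and 35 and 43 of Ostb. It held 20.5 and 21.1 CPM of Slc10a2 and 59.2 and 58.6 CPM of Atp8b1. In replicates 2 and 3 Abcc2 (0.38) and Abcb4 (0.38), export pumps of the canaliculus, and Slco1a1 (1.86, SE 0.60) did not pass. Slco1a1, an uptake carrier known to be higher in males, was at 804 and 519 CPM in replicate 2, 311 and 36.3 CPM in replicate 3 and 107 and 104 CPM in replicate 1.

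Among 11 tested regulators there was 1 higher and 1 lower call in replicates 2 and 3. Nr1i3 (CAR), a xenobiotic receptor, was at 143 and 198 CPM in libraries labelled Axin2-positive (replicates 2 and 3) against 80.9 and 126 CPM (log2 fold change 0.74, SE 0.11, edgeR adjusted p = 0.0248). Ppargc1a, a coactivator of fasting metabolism, was at 1.55 and 9.33 CPM against 7.39 and 20.6 CPM (-1.63, SE 0.27, edgeR adjusted p = 0.0347). Replicate 1 held 151 and 151 CPM of Nr1i3 and 10.2 and 10.6 CPM of Ppargc1a. The motif word of Hnf4a stands beside the LRH-1 word in the Cyp8b1 promoter shown above. In replicates 2 and 3 the LRH-1 gene Nr5a2 gave 0.05 (SE 0.09) and Hnf4a gave -0.23 (SE 0.11), neither called. Rxra, the partner of FXR, gave -0.40 (SE 0.11) and Prox1, a corepressor of Cyp7a1, gave -0.04 (SE 0.09), also not called.

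**Figure D5:**
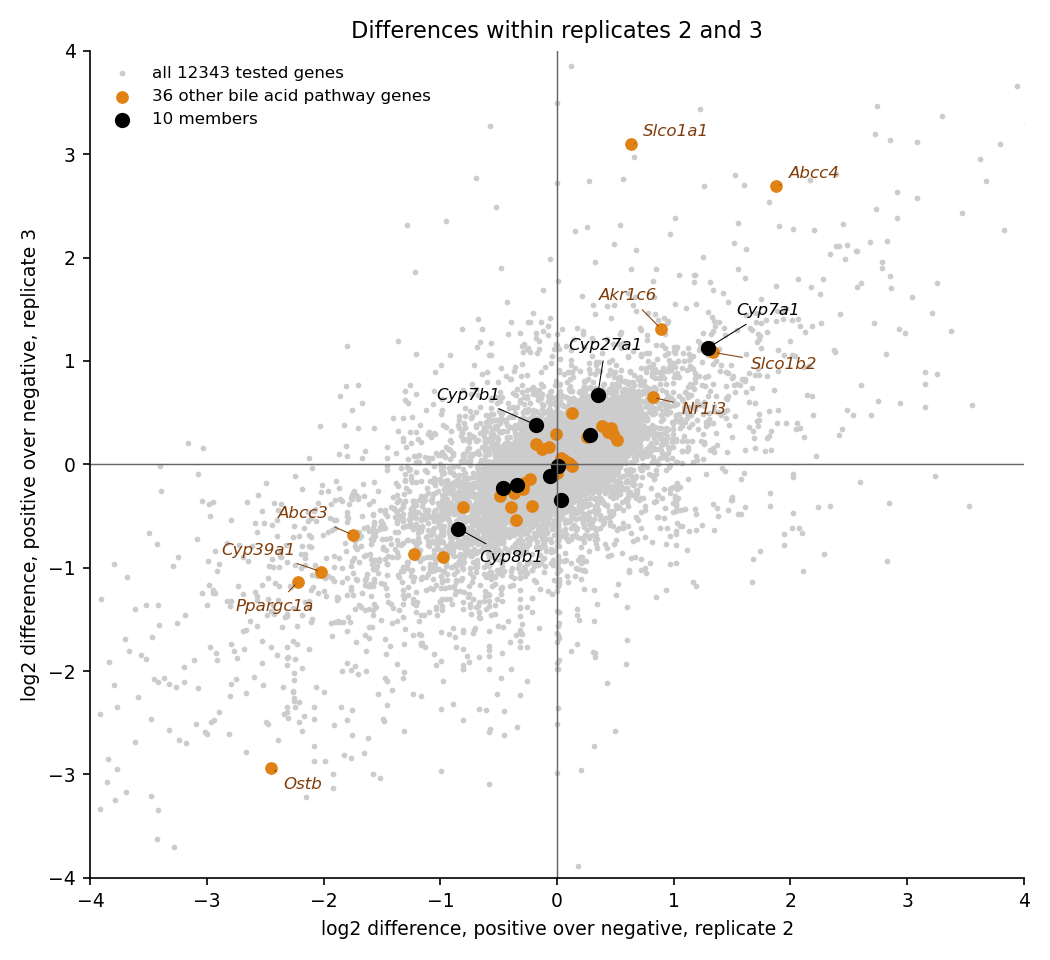
Log2 difference, Axin2-positive over Axin2-negative, in replicate 2 (x axis) and replicate 3 (y axis) for all 12343 tested genes (grey), 36 other bile acid pathway genes (orange) and the 10 members (black), with 79 genes outside the axes. Cyp7a1 lies beside Slco1b2 at the upper right, Cyp8b1 at the lower left, and most members near the centre.

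For each member the tested genes most alike over the 6 libraries were listed by Pearson's r of log2 CPM, as a description without a test, since libraries of a replicate are alike. The highest of 12342 values was 0.999 for Cyp7a1 with Cldn2 (a claudin) and 0.999 with Rnase4 (a secreted ribonuclease). Cldn2 was at 55.9, 183 and 196 CPM in libraries labelled Axin2-positive (replicates 1, 2 and 3) and 56.3, 89.4 and 97.6 CPM in the others, so, like Cyp7a1, it was highest in replicates 2 and 3 of the label Axin2-positive and lowest in replicate 1. Cyp8b1 was most like Gpr108 (0.996) and Cyp21a1 (0.995), Cyp27a1 like Sys1 (0.999) and Tnfaip8l1 (0.996), and Cyp7b1 like Mbd1 (0.999) and Fmn2 (0.998), with the top of Cyp7b1 following replicate 2. Baat was most like Serpina5 and Mpeg1 (both 0.997), Slc27a5 like Macrod1 and Psph (both 0.995), Slc10a1 like Mfsd2a (0.999) and Reps2 (0.997), and Abcb11 like Spin1 (0.998) and Gm16845 (0.997). The values were lower for Nr1h4 with Svip (0.985) and Utp14b (0.984), and for Nr0b2 with Trim21 (0.991) and Galnt11 (0.990).

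In the authors' deposited table of transcripts, which holds 1 FPKM value per group, none of the 13 transcripts of the members had a q-value under 0.05. All 13 had the status OK, as did 13843 of the 30165 transcripts listed there, and 97 transcripts were marked significant. The lowest p of a member in the authors' deposited table was that of Cyp7a1, at 75.4 FPKM in Axin2-positive and 41.2 FPKM in Axin2-negative cells (p = 0.00545, q = 0.389). The authors' deposited table gave Cyp8b1 at 125 and 188 FPKM (p = 0.0574, q = 0.9995), Cyp27a1 at 319 and 256 FPKM, and Cyp7b1 at 41.7 and 74.3 FPKM (p = 0.0388, q = 0.9995). The deposited log2 ratio of Cyp7b1 was -0.83, where the counts gave -0.13 (SE 1.46) over 6 libraries. In the counts its partners had no common direction, and its level was highest in both libraries of replicate 2. Why the deposited value differs was not tested.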

How the data were processed

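The authors deposited raw read counts per gene symbol for 6 libraries made with a stranded mRNA kit, per the labels' protocols. The submitters' processing notes name TopHat2 2.0.11 and the build mm10. Which program counted reads, with which annotation and strand setting, is not given in the sources used here. A further table the authors deposited holds FPKM per transcript with p-values and q-values, 1 FPKM per group, for which those notes name Cuffdiff 2.2.2. Among the gene symbols, 23 had turned into dates and were kept.

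Counts were tested with edgeR 4.0.16 (R 4.3.3; default expression filter, TMM, quasi-likelihood F test, group only) over 12343 genes, Benjamini-Hochberg adjusted, calling at 0.05. SEs are the log2 fold change divided by the root of F. CPM use TMM-scaled totals, and differences between partners an offset of 0.05 CPM. RPKM divide CPM by the union of protein-coding exons in GENCODE M21 (GRCm38). Depth was 75882611 to 103386648 reads. Nothing in the labels ties libraries to separate mice. By Ddx3y and Xist replicate 2 was male and the others female, so the libraries did not all come from the same mouse. How many mice there were is not known. The p-values measure only the spread between these samples, which includes this sex difference and may in part be technical.

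Same-numbered libraries shared an index, and their deviations from the group means correlated at 0.68, 0.82 and 0.75; the labels do not say what the index shares. Alternatives were the replicate block, fits of 2 replicates, a test against a fold of 1.5, DESeq2 1.42.0, limma-voom 3.58.1, RLE factors, plain totals, no filter, an offset of 0.5 CPM and leaving out each library. Fits were tested on simulated counts. Members, lists and alternatives were chosen with earlier results of these data known. Named genes were the members, per list the 4 highest in mean CPM and those called, Nr5a2 (added after its values were seen), position and sex markers, and 2 most alike genes per member. Slc51b was found under its older symbol Ostb, and Slc51a, Fgf15 and Gpbar1 were not analysed here. The summed level of the bile duct markers is not reported here.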

Additional observations from a re-analysis of the deposited data

How the results depend on the processing

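With the replicate block, edgeR called 0 members, 0 other pathway genes and 0 genes in all, as over 6 libraries without it, so the block changed no call there. Leaving out both libraries of replicate 1, with the replicate block, gave 2 called members, 9 other pathway genes and 922 genes in all, and 1, 2 and 208 against a fold of 1.5; leaving out replicate 2 or replicate 3 instead gave 0 of each. Leaving out single libraries gave 0 members, 0 other pathway genes and 0 to 6 genes in all, the 6 without the library labelled Axin2-positive 1. DESeq2, limma-voom, RLE factors, plain totals and no filter also gave 0 of each. Of 160 log2 fold changes of members under these alternatives, 140 kept their direction and stayed uncalled, 3 became called and 17 changed sign, all of Cyp7b1, Baat, Abcb11 or Cyp8b1.

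The sign of Cyp7b1 changed to 0.0583 with the replicate block, 0.0620 with limma-voom, 0.0992 without replicate 1 (also against a fold of 1.5) and 0.181 without replicate 2. Leaving out single libraries moved it from -2.27 (without the library labelled Axin2-positive 2) to 2.36 (without Axin2-negative 2), which leaves the male replicate in 1 group only. Baat changed sign to -0.00324 without replicate 1 (also against a fold of 1.5) and to -0.0173 with plain totals, with a range of -0.14 to 0.15 over single libraries left out. Abcb11 ranged from -0.11 to 0.0520 and Cyp8b1 from -0.88 to 0.0940, the latter without the library labelled Axin2-negative 2. Cyp7a1 ranged from 0.72 to 1.45 over single libraries left out, and was 0.581 without replicate 2 and 0.664 without replicate 3. The count of members past a fold of 1.5 within a replicate was 0, 2 and 3 in replicates 1, 2 and 3, also with plain totals and with an offset of 0.5 CPM. Each member had at least 1897 reads in every library.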
